A study of Homo sapiens with 4 samples.

Results

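In MIA PaCa-2 cells treated with DMSO, 1950 of the 9552 c-MYC peaks lay inside protein-coding genes, away from any transcription start site (TSS), and overlapped no peak called after AMG510 or trametinib. These peaks are described here. A peak was counted as a gene-body peak when its summit was more than 1 kb from every TSS of a GENCODE protein-coding or lncRNA transcript and lay within a protein-coding gene. It was counted as absent under a drug when no base of it was shared with a peak of that drug's list, so that absence means the lack of a called peak and not the lack of signal. The members were chosen by the overlaps of the called lists. The share absent, and every measure of peak strength, is therefore a description with no test.

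MIA PaCa-2 is an established cell line of human pancreatic ductal adenocarcinoma. Treatment lasted 8 h and consisted of the vehicle (DMSO), 100 nM AMG510 or 10 nM trametinib, a MEK inhibitor, after which c-MYC-bound chromatin was precipitated with an antibody. A control precipitation with immunoglobulin (IgG) was made from DMSO-treated cells only. Each of the 4 groups was 1 library of 1 cell line, so drug and library cannot be told apart and no test of treatment was possible. The depth in peak calling, estimated from the peak values with an assumed genome size, was between 22700000 and 24800000 tags per library. The uniquely mapped reads that the study reports were fewest for trametinib, where this estimate was highest. The estimate therefore does not rank the libraries.

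MYC is a transcription factor that binds DNA as a dimer with MAX. The dimer prefers the palindrome CACGTG, the canonical E-box, and tolerates related letters such as CACGCG. Most MYC binding in dividing cells is found at CpG-rich promoters, and sites inside genes include enhancers and promoters of other transcripts. In pancreatic cancer cells, MYC acts downstream of ERK signalling, which MEK inhibitors block.

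The sequences below show where the E-box lay in the strongest E-box members, which are the clearest candidates for the motif within the set. Each line gives 46 bases of the GRCh38 plus strand, with the E-box in capitals.
PRDM12, chr9:130681410-130681455: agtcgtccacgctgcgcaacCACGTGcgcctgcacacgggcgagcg
ASPSCR1, chr17:82003801-82003846: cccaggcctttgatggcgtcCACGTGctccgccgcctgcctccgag
RNF6, chr13:26186430-26186475: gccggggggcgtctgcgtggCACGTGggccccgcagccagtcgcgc
POLR3E, chr16:22321514-22321559: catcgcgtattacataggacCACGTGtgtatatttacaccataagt
SH3TC2, chr5:148966075-148966120: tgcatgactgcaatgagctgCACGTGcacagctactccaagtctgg
INTS1, chr7:1474211-1474256: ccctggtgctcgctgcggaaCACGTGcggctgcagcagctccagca
PDZD2, chr5:31708359-31708404: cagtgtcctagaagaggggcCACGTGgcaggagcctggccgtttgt
PRKAG2, chr7:151783196-151783241: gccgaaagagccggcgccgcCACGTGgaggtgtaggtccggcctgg
ZBTB7B, chr1:155003918-155003963: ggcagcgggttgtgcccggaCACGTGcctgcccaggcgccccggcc

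The 2 members of highest fold enrichment are shown as whole 201-bp windows around the summit on the plus strand. Capitals mark the E-box CACGTG. They also mark CACGCG, which reads CGCGTG where it lies on the minus strand. The NHSL2 window held only the noncanonical form, and the RBFOX3 window held both forms.
NHSL2, chrX:72018547-72018747: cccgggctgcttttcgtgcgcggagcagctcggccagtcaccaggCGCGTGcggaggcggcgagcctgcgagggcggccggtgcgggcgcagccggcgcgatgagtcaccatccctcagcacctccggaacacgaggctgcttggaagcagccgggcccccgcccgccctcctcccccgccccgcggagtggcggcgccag
RBFOX3, chr17:79294659-79294859: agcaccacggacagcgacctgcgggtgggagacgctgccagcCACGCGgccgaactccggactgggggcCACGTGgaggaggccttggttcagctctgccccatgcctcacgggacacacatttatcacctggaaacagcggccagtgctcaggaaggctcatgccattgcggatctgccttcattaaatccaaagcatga

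Absence under both drugs was the rule rather than the exception for gene-body peaks. Of 2050 gene-body peaks in DMSO, 1950 (95.1%) overlapped neither drug list, against 73.3% of all DMSO peaks and 56.3% of the 4621 promoter peaks, defined by a protein-coding TSS at most 1 kb from the summit. By drug, 96.4% of gene-body peaks had no AMG510 overlap and 97.1% no trametinib overlap. The same shares were 79.5 and 82.9% for all DMSO peaks, and 66.8 and 72.3% for promoter peaks. The 100 gene-body peaks that were kept comprised 40 that overlapped an AMG510 peak only, 27 that overlapped a trametinib peak only and 33 that overlapped both.

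Gene bodies were not empty of called peaks after treatment. The AMG510 list held 3222 gene-body peaks and the trametinib list 1349. Of these, 97.8% and 95.6%, respectively, overlapped no DMSO c-MYC peak, where the shares for the whole lists were 80.9 and 69.4%. The drug lists also shared little with each other inside genes, with 38 AMG510 gene-body peaks (1.18%) overlapping a trametinib peak. Few called positions in gene bodies were thus shared by any pair of the c-MYC libraries, including the pair from drug-treated cells. At promoters, 887 of 2808 AMG510 peaks (31.6%) overlapped a trametinib peak.

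Few members lay close to a drug peak. The nearest AMG510 peak was a median of 74.7 kb away, and the nearest trametinib peak a median of 126 kb away. Only 21 members had a peak of either drug within 500 bp and 235 within 10 kb. Counting drug peaks within 500 bp as shared left 1929 members. The member closest to a drug peak lay in FAM120B, 5 bp from an AMG510 peak, followed by MGAT5 at 6 bp and SH3GL1 at 47 bp. Just outside the limit, peaks in CDHR3, COL18A1 and ERCC1 shared 7, 29 and 33 bp with a drug peak. At the TSS limit, the summits just inside were in MTURN at 1002 bp, AIM2 at 1010 bp and FAM53B at 1011 bp, and those just outside were in CPT1A at 999 bp and in MEX3A and ST3GAL2, both at 991 bp. CPT1A encodes the carnitine palmitoyltransferase that admits fatty acids to mitochondria.

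The members were weak peaks. Their fold enrichment, the ratio of tags at the summit to the local background, had a median of 4.30 and reached at most 9.19. The summits carried a median of 12 tags, from 8 to 35, and 584 members (29.9%) had 10 tags or fewer. At the genome-wide background, 7 tags sufficed for a call in the AMG510 library and 8 in the DMSO and trametinib libraries. A count of 12 tags has an exact Poisson 95% interval of 6.20 to 21.0, which holds both drug minimums. The lower bound of a member's own interval lay above the AMG510 minimum for 376 members (19.3%) and above the trametinib minimum for 216 (11.1%). These minimums hold only at the genome-wide background, and a higher local background needs more tags. In the DMSO library the local background lay above the genome-wide value at 1672 members (85.7%). The members were also chosen as peaks called in DMSO, so these shares are a description and not a test. Both mates of a read pair can count as tags, so the Poisson intervals cover counting error only and are too narrow.

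The 100 kept gene-body peaks were stronger, with a median fold enrichment of 5.00, 17 tags and a width of 289 bp against 201 bp in the members. A fold enrichment above 5 was reached by 371 members (19.03%) and by 50 kept peaks (50%). A score above 60, where the score is 10 times the −log10 q-value, was reached by 74 members (3.79%) and 41 kept peaks (41%). The share absent was 98.0% in the lowest of 10 equal groups of gene-body peaks by fold enrichment and 82.4% in the highest. In the plot of peak strength the curve of the members runs to the left of that of the kept peaks over most of the range. The intergenic peaks absent under both drugs resembled the members in strength, with a median fold enrichment of 4.31 and 12 tags, whereas absent promoter peaks had medians of 4.55 and 14 tags.

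**Figure D1:**
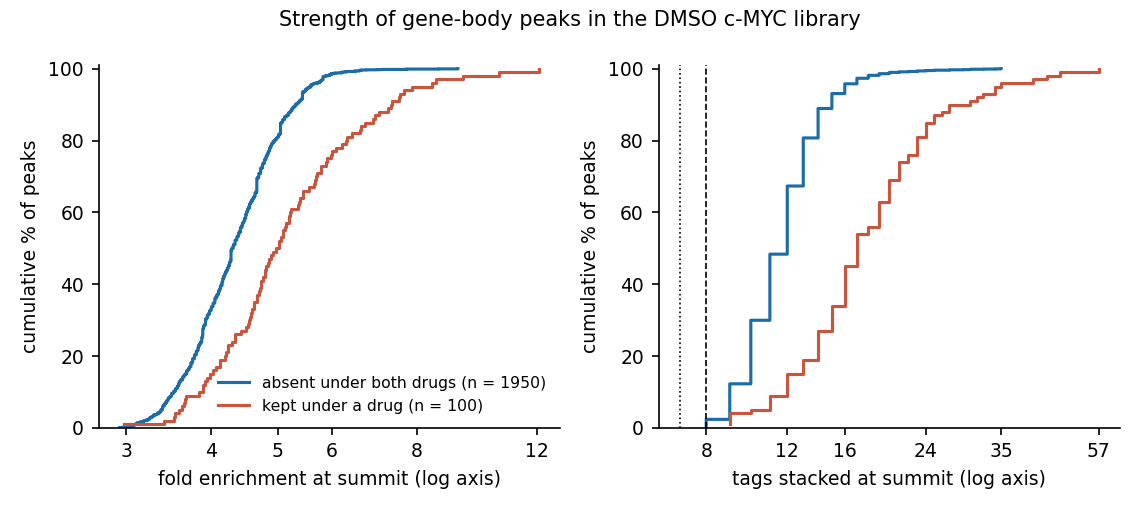
Cumulative share of DMSO gene-body peaks by fold enrichment (left) and by tags at the summit (right), both on log axes, for the 1950 peaks absent under both drugs and the 100 kept under a drug. The dotted and dashed lines mark the smallest tag numbers called at the genome-wide background in AMG510 (7) and trametinib (8); members had a median of 12 tags and kept peaks of 17.

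The strongest members lay in genes of varied function. The largest fold enrichment, 9.19 from 23 tags (95% interval 14.6 to 34.5), was in intron 1 of NHSL2, with the nearest AMG510 and trametinib peaks 257847 and 220160 bp away. It was followed by a peak of 8.61-fold and 23 tags in intron 3 of RBFOX3, which encodes the neuronal splicing regulator NeuN. A peak in coding exon 5 of PRDM12, a zinc-finger transcription factor of sensory neurons, had 7.73-fold enrichment from 30 tags (20.2 to 42.8), and the nearest AMG510 and trametinib peaks were 12232 and 12253 bp away. Intron 7 of ASPSCR1, known for its fusion with TFE3, held a peak of 7.71-fold and 34 tags (23.5 to 47.5). RNF6, a ubiquitin ligase, followed with 7.12-fold and 22 tags.

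The other 5 of the strongest 10 reached between 6.60- and 6.99-fold. They lay in intron 8 of DGCR8, a subunit of the microRNA-processing Microprocessor, in coding exon 3 of NR2F6, an orphan nuclear receptor, in coding exon 9 of SSC4D, in intron 1 of the calcium/calmodulin-dependent kinase gene CAMK1D and in intron 10 of CCDC7. Their tags were 17, 27, 35, 16 and 16, respectively. Only RBFOX3, PRDM12, ASPSCR1 and RNF6 of these 10 held a CACGTG within 100 bp of the summit. The NHSL2, RBFOX3, NR2F6 and SSC4D windows held CACGCG. The CAMK1D and CCDC7 windows held neither and had GC contents of 42.8 and 39.3%.

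The E-box was not used in choosing the members and was compared next. Of 1950 members, 94 carried CACGTG at most 100 bp from the summit, a share of 4.82% (Wilson 95% interval 3.96 to 5.86). In windows of the same length 1 kb to either side the share was 2.08%. The difference of 2.74 percentage points had a Newcombe 95% interval of 1.75 to 3.86, which excluded 0. The intervals treat peaks as independent and describe these libraries only. In the profile around the summit, E-boxes were most frequent in both 50-bp bins next to it, at 16.4 and 14.9 per 1000 members.

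**Figure D2:**
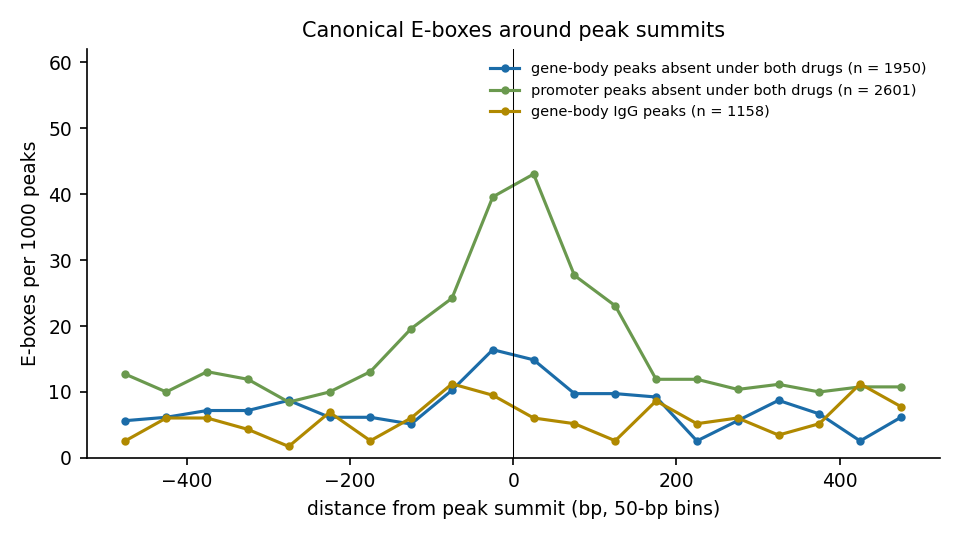
Canonical E-boxes per 1000 peaks in 50-bp bins from the summit, for members, absent promoter peaks and gene-body IgG peaks of DMSO-treated cells. Members rise to 16.4 per 1000 beside the summit, well below absent promoter peaks, and IgG peaks stay at or below 11.2.

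The E-box share of the members was lower than that of promoter and kept gene-body peaks. An E-box was present in 12.3% of promoter peaks absent under both drugs (3.38% 1 kb to the side). It was present in 13% of the kept gene-body peaks (5% to the side). The members differed from the former by −7.44 points (−9.02 to −5.85) and from the latter by −8.18 points (−16.2 to −2.83). Absent intergenic peaks had 4.06%, and their difference from the members was not detectable (0.77 points, interval −0.48 to 2.04). The members exceeded the gene-body IgG peaks, at 2.85%, by 1.97 points (0.55 to 3.29). Within classes of CpG number, described below, the difference from IgG peaks had intervals that held 0. They also exceeded the gene-body peaks found with AMG510 but not DMSO, at 2.51%, by 2.31 points (1.26 to 3.47), and those found with trametinib but not DMSO, at 2.56%, by 2.26 points (0.93 to 3.54). In these latter AMG510 and trametinib sets the E-box share differed from that 1 kb to the side by 0.17 and 0.74 points, with intervals that held 0 (−0.46 to 0.87 and −0.20 to 1.84). The gene-body IgG, AMG510 and trametinib sets had medians of 10, 10 and 11 tags, against 12 in the members. The comparisons with them were not matched for strength.

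The noncanonical E-box was likewise rarer in the members than in promoter and kept peaks. CACGCG was within 100 bp of the summit in 44 members (2.26%, against 0.79% to the side), in 19.5% of absent promoter peaks, in 25% of kept gene-body peaks, in 2.18% of absent intergenic peaks and in 0.26% of gene-body IgG peaks. The members exceeded the IgG peaks by 1.997 points (1.24 to 2.78). They exceeded the gene-body peaks found with AMG510 but not DMSO by 0.80 points (0.05 to 1.64), and those found with trametinib but not DMSO by 1.25 points (0.34 to 2.12). Strength was not matched in these comparisons either. The GC box GGGCGG, read by SP and KLF factors, was present in 7.69% of members against 4.44% to the side, and in 57.9% of absent promoter peaks. For CATGTG, the AP-1 sequence (TGACTCA or TGAGTCA), the TEAD sequence GGAATG, the ETS sequence CCGGAAG and the CTCF core, the difference between the summit windows of the members and the side windows had an interval that held 0. Searches covered both strands. The letters are a description and do not show binding by any factor.

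**Figure D3:**
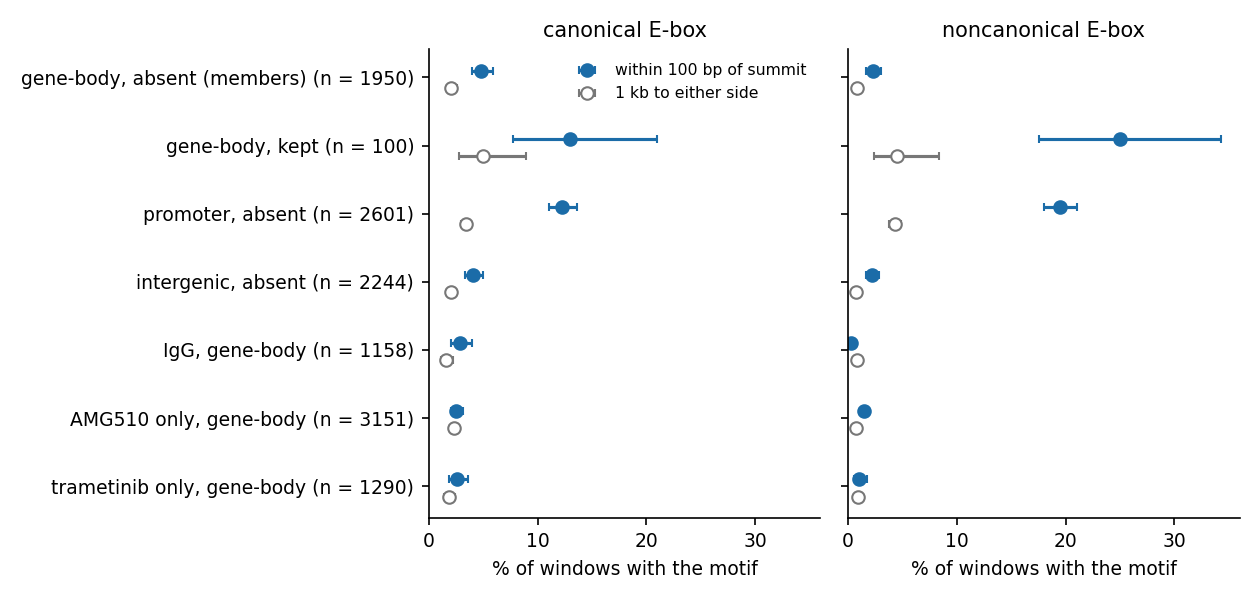
Share of 201-bp windows with a canonical (left) or noncanonical (right) E-box at the summit and 1 kb to either side, with Wilson 95% intervals, for members and 6 other peak sets. For the canonical E-box, members (4.82%) lie with absent intergenic peaks (4.06%) and below the absent promoter peaks (12.3%). They lie above the gene-body peaks of IgG and those found with a drug but not DMSO, which had lower median tags and were not matched for strength. Peaks labelled AMG510 only or trametinib only overlapped no DMSO peak but may overlap a peak of the other drug.

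Within the members the E-box share was higher in the strong peaks. Of the 74 members with a score above 60, 16 held CACGTG (21.6%, interval 13.8 to 32.3), against 78 of the other 1876 (4.16%), a difference of 17.5 points (9.55 to 28.1). At this score the direction of both comparisons above turned: the members were 1.51 points above absent promoter peaks (−7.11 to 12.6) and 2.11 points above kept gene-body peaks (−14.4 to 16.2), with intervals that held 0. The E-box share was 20.1% of 547 absent promoter peaks, 19.5% of 41 kept gene-body peaks and 18.1% of 116 absent intergenic peaks with such a score. Absent members with a high score were thus not detectably poorer in CACGTG than kept or promoter peaks of that score. The noncanonical CACGCG was present in 10.8% of these members (5.58 to 19.9). It was present in 27.2% of such absent promoter peaks (23.7 to 31.1), 26.8% of such kept peaks (15.7 to 41.9) and 6.03% of such absent intergenic peaks. Of the 27 members with 20 or more tags, a division made after the values were seen, 14 held an E-box (51.9%, interval 34.0 to 69.3). In 4 equal groups of rising fold enrichment the share was 4.10, 4.11, 3.90 and 7.17%, and the highest group exceeded the lowest by 3.07 points (0.16 to 6.08).

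The E-box share also rose with CpG number. A window with 10 or more CpG dinucleotides was present in 176 members, 36 of which held an E-box (20.5%), against 58 of 1774 with fewer (3.27%), 17.2 points apart (11.8 to 23.8). CACGTG itself contains a CpG, so none of the 301 members with 0 CpG could hold it. The rise was not general: in absent promoter peaks the share fell from 20.9% at 6 to 9 CpG to 10.0% at 20 or more. Strength and CpG number moved together. Of the members with 20 or more tags, 21 (77.8%) had 10 or more CpG, against 8.06% of the rest, and among those with a score above 60 the share was 35.1%, against 7.996% of the rest. Their separate parts in the E-box share were not tested.

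The members were therefore set beside windows of like CpG number 1 kb to the side. With 0 to 2 CpG, the state of 1040 members (53.3%), 0.77% held an E-box against 0.98% to the side, a difference of −0.21 points (−0.81 to 0.60) that was not detectable. The members exceeded the side windows by 1.97 points at 3 to 5 CpG, with an interval that held 0 (−0.17 to 4.47), by 5.25 points at 6 to 9 CpG (0.65 to 10.4) and by 12.3 points at 10 to 19 CpG (3.75 to 20.9). At 20 or more CpG the difference was 14.5 points, with an interval that held 0 (−3.32 to 28.4). Against absent promoter peaks the members were lower in each class below 10 CpG, with a difference of −14.7 points over these classes (−19.9 to −10.3). At 10 to 19 CpG the difference from them was 4.04 points with an interval that held 0 (−2.48 to 12.3), and at 20 or more CpG the members were higher, by 14.1 points (4.80 to 26.6). Gene-body IgG peaks with fewer than 10 CpG held an E-box in 2.74%, and the members differed from them by 0.53 points with an interval that held 0 (−0.82 to 1.76). With 10 or more CpG, the state of only 28 gene-body IgG peaks, the difference was 13.3 points, with an interval that held 0 (−3.07 to 21.7).

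**Figure D4:**
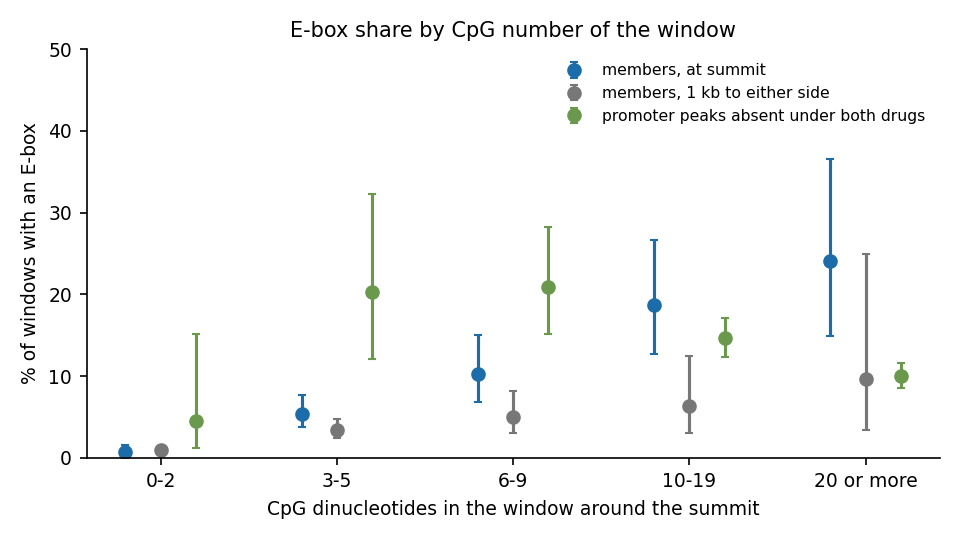
Share of 201-bp windows with a canonical E-box by the number of CpG dinucleotides in the window, with Wilson 95% intervals, for members at the summit, for members 1 kb to either side and for absent promoter peaks. Members rise from 0.77% at 0 to 2 CpG to 24.1% at 20 or more, while absent promoter peaks fall to 10.0%.

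The strongest E-box members beyond those already named were in POLR3E, SH3TC2, INTS1, PDZD2, PRKAG2 and ZBTB7B. POLR3E encodes a subunit of RNA polymerase III, and its peak in intron 13 had 6.51-fold enrichment from 16 tags, with the nearest drug peak 339725 bp away. SH3TC2, an endosomal recycling protein of Schwann cells, had 6.29-fold and 25 tags. INTS1, a subunit of the Integrator complex that cleaves nascent snRNA, had 6.05-fold and 24 tags in coding exon 41, with 2 E-boxes in the window, as in RNF6. PDZD2 had 5.93-fold in intron 1, PRKAG2, a regulatory subunit of the energy sensor AMPK, had 5.90-fold in intron 2, and ZBTB7B, the transcription factor that directs CD4 T-cell fate, had 5.62-fold and 27 tags in intron 1. In the 10 strongest E-box members the centre of the nearest E-box lay 8 to 44 bp from the summit. In the sequences printed above, the bases that flank the E-box vary. Of 97 E-boxes in all members, 20 (20.6%) read GCACGTGC, 16 read CCACGTGC or its reverse complement and 14 read CCACGTGG. Among 340 E-boxes in absent promoter peaks these numbers were 34 (10.0%), 75 and 57.

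Base composition moved with these sets. The mean GC content of the 201-bp window was 48.0% ± 10.8 (SD, n = 1950 members), and 42.8% 1 kb to the side. Kept gene-body peaks had 63.1% ± 13.1, and the members were 15.1 points lower (−17.7 to −12.5). The members were 1.51 points above absent intergenic peaks (0.86 to 2.16) and 4.13 points above gene-body IgG peaks (3.42 to 4.84), while absent promoter peaks had 70.2% ± 8.97. The part of GC content or CpG number in the E-box differences beyond the strata above was not tested.

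Overlap with the IgG library was rare. Only 2 members (0.10%, Wilson interval 0.03 to 0.37) shared a base with an IgG peak, in intron 3 of FAM20C, the Golgi kinase of secreted proteins, and in intron 9 of FAM120B. Their fold enrichments were 5.44 and 4.54. Among the kept gene-body peaks 12 of 100 overlapped an IgG peak, and the members were 11.9 points lower. Kept peaks are by rule called again in a drug library and members are not, so this difference is a description with no test. Of all DMSO peaks, 2.00% overlapped an IgG peak. Kept peaks in COL23A1, LPA and TMEM242, which are among the 5 strongest kept, overlapped an IgG peak, whereas those in JAG2, a Notch ligand, and PRRX2 did not. Overlap was also low for absent promoter peaks (0.19%) and for absent intergenic peaks (0.53%). IgG positions were themselves seldom called again: 14 of 1158 gene-body IgG peaks (1.21%) overlapped a DMSO c-MYC peak.

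The members were spread through genes nearly as the gene-body bases are. The canonical intron 1 held 377 summits (19.3%, interval 17.6 to 21.1), where it makes up 19.8% of gene-body bases over 1 kb from a TSS. The 3' UTR held 50 (2.56%, against 2.59% of bases). Coding exons were over-represented, with 81 summits (4.15%, 3.35 to 5.13) against 2.20% of bases, and exons of any kind held 133 (6.82%, 5.78 to 8.03) against 4.82%. The excess in exons over gene-body IgG peaks, which had 5.53%, was 1.29 points with an interval that held 0 (−0.50 to 2.98). In coding exons the IgG peaks had 2.94%, and the excess of the members was 1.22 points with an interval that held 0 (−0.17 to 2.5). Kept gene-body peaks lay in exons in 22% of cases. From the start to the end of the gene, each 10% of its length held between 8.21 and 11.2% of members.

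Density was highest close to the start sites. There were 2.10 members per Mb at 1 to 2 kb from the nearest TSS (exact Poisson interval 1.74 to 2.52), 1.56 at 2 to 5 kb, 1.86 at 5 to 10 kb, 1.64 at 10 to 50 kb, 1.30 at 50 to 100 kb and 1.21 beyond 100 kb (1.04 to 1.41). Gene-body IgG peaks were also densest at 1 to 2 kb, with 1.06 per Mb (0.81 to 1.37). They were sparsest beyond 100 kb, with 0.78 per Mb (0.64 to 0.94). These IgG intervals overlap, and the declines of members and IgG peaks were not compared. The E-box share fell up to 50 kb, from 12.8% (7.93 to 20.1) at 1 to 2 kb to 8.41% at 2 to 5 kb, 4.39% at 5 to 10 kb and 3.34% (2.35 to 4.73) at 10 to 50 kb, and was 4.24% (2.32 to 7.62) at 50 to 100 kb and 4.19% (2.05 to 8.398) beyond. The mean GC content of the members also fell with distance, from 56.997% at 1 to 2 kb to 44.547% beyond 100 kb. Its part in the fall of the E-box share was not tested. A TSS of another transcript type, such as a retained-intron transcript, a pseudogene or a small RNA, lay within 1 kb of 129 members (6.62%, against 5.45% of gene-body bases), of 35% of the kept peaks and of 4.15% of IgG peaks. These 129 members had an E-box in 10.1% of cases, against 4.45% of the rest, 5.63 points apart (1.40 to 12.1). Among the named peaks, those in SSC4D, ASPSCR1 and DGCR8 lay 27, 561 and 970 bp from such a TSS, and those in INTS1 and ZBTB7B lay 1100 and 1121 bp from a protein-coding or lncRNA TSS, close to the limit.

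The chromosomes differed widely in the density of members. Chromosome 5 had 3.14 members per Mb of gene body (2.74 to 3.58), followed by chromosomes 20 (2.50), 17 (2.41), 1 (2.39) and 19 (2.28). The order closed with chromosomes X (0.70), 13 (0.57), 11 (0.34), 15 (0.28) and 4 (0.19, interval 0.10 to 0.32), so that the highest was 16.4-fold the lowest. Gene-body peaks of the other libraries ranked the chromosomes in a like order. Over the 23 chromosomes Pearson's r with the density of members was 0.80 for IgG gene-body peaks (Spearman's rho 0.76), 0.88 for AMG510 (0.87) and 0.91 for trametinib (0.90). The chromosomes share the copy number, mappability and base composition of 1 cell line across all 4 libraries, so the correlations are given as a description. IgG gene-body peaks numbered 1.17 per Mb on the 5 highest chromosomes and 0.37 on the 5 lowest. The local background of the c-MYC library lay above its genome-wide value at 94.0% of members on the 5 highest and at 51.0% on the 5 lowest. The copy number of these chromosomes was not measured, and its part was not tested.

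**Figure D5:**
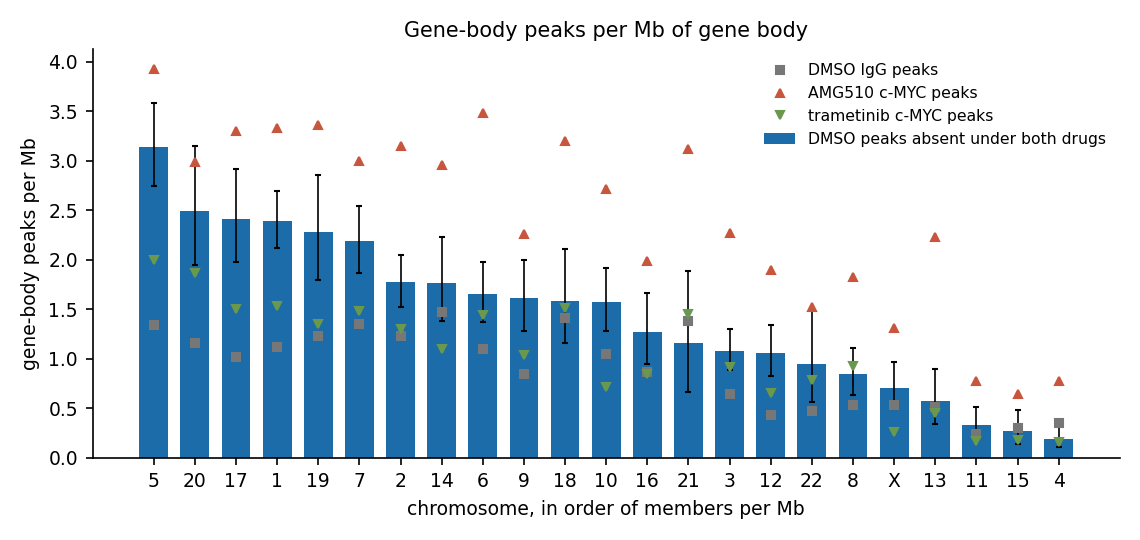
Gene-body peaks per Mb of gene body by chromosome, with bars and exact Poisson 95% intervals for members and symbols for gene-body peaks of the IgG, AMG510 and trametinib libraries. Members run from 3.14 per Mb on chromosome 5 to 0.19 on chromosome 4, and the other libraries are also low on chromosomes 11, 15 and 4.

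By gene, 1689 of 19970 protein-coding genes (8.46%) held a member. Most of them, 1408, held 1 member, while 210 held 2 and 71 held 3 or more, and 103 members lay in more than 1 gene. Host genes were long, with a median of 119 kb against 24.1 kb for genes without a member. PTPRN2, a receptor-type phosphatase of neuroendocrine vesicles, held the most members, 10, over 1049 kb. The fold enrichments there ranged from 3.46 to 5.60 with 9 to 15 tags. The same gene held 4 gene-body peaks of AMG510, 4 of trametinib and 2 of IgG, at other positions. RABGAP1L, a Rab GTPase-activating protein, and IQGAP2, a cytoskeletal scaffold, held 6 members each, of which those in IQGAP2 lay within 305 kb (19.7 per Mb). FBXL17, an F-box protein, and the chromatin cofactor GSE1 held 5 each, and PEBP4, PPM1H and DPP6 held 4 each. GSE1 and PPM1H had no gene-body peak in either drug list or with IgG. None of the members in these 8 genes held a CACGTG within 100 bp of its summit.

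Host genes were compared at their promoters, which are other sites than the members. A DMSO promoter peak was present in 511 of the 1689 host genes (30.3%) and in 23.3% of genes with no member, 6.996 points apart (4.76 to 9.31). In genes over 50 kb the difference was 3.90 points (1.16 to 6.72), and on the 5 chromosomes of highest density it was 3.21 points with an interval that held 0 (−0.32 to 6.97). Where a gene had a DMSO promoter peak, an AMG510 peak overlapped it in 34.6% of host genes and 36.1% of the others (−1.49 points, −5.74 to 2.98). A trametinib peak overlapped it in 28.4 and 30.7%, respectively (−2.32 points, −6.31 to 1.97). Loss of a promoter peak was therefore not detectably different between genes with and without a member.

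Gene lists chosen for the pathways of the study are given beside all protein-coding genes, of which 8.46% held a member, at 1.51 members per Mb. Host genes were long, so the density is given beside each share. Of 31 genes of fatty acid and cholesterol synthesis, 4 held a member (12.9%, 2.27 per Mb). These were SREBF1, the transcription factor of lipid synthesis, with 4.05-fold enrichment from 13 tags in intron 1, ACACA, the acetyl-CoA carboxylase, with 3.44-fold and 10 tags, the elongation enzyme HACD2 with 3.796-fold and the desaturase SCD5 with 4.66-fold. SREBF1 and ACACA each also had a DMSO promoter peak that was overlapped by both drug lists. Of 25 genes of sphingolipid synthesis, 3 held a member (12%, 2.01 per Mb), the ceramide synthases CERS6 (5.40-fold) and CERS4 (4.15-fold) and the sphingomyelin synthase SGMS1 (5.42-fold). None of these 7 genes had an E-box at a member.

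Among 38 genes of the PIKfyve complex, lysosome and autophagy, 6 held a member (15.8%, 1.97 per Mb). They were RPTOR (5.78-fold, 14 tags) and MTOR (4.63-fold, 12 tags) of the mTORC1 complex, the autophagy kinase ULK1 (5.44-fold), ATG10 (3.84-fold), the lysosomal transcription factor TFE3 (4.12-fold) and the V-ATPase subunit ATP6V0A1 (3.41-fold). The ATP6V0A1 member was the 1 of these with an E-box. Of 38 genes of ERK feedback and output, 5 held a member (13.2%, 3.70 per Mb). The density of this list rests on 5 members in 1.35 Mb of gene body, where gene-body IgG peaks numbered 1.48 per Mb. SPRED2, an inhibitor of RAS-ERK signalling, had the most tags there, 20 (12.2 to 30.9), at 4.37-fold, and the others were ETV1 (4.69-fold), FOSL2 (4.33-fold), CCND1 (4.11-fold) and ETV4 (3.798-fold). CCND1, which encodes cyclin D1, had its summit 1068 bp from a TSS, close to the limit.

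In the MYC, MAX and MXD network 2 of 19 genes held a member (10.5%, 3.06 per Mb), ZBTB17, which encodes the MYC partner MIZ-1 (4.51-fold, with an E-box), and the MYC antagonist MXI1 (5.59-fold). Both also had a DMSO promoter peak that an AMG510 peak overlapped and no trametinib peak did. Of 29 receptor tyrosine kinase genes, 4 held a member (13.8%, 1.33 per Mb), INSR (5.80-fold, 20 tags), ROR1 (4.66-fold), ERBB4 (4.16-fold) and EGFR (4.05-fold). The adhesion and cytoskeleton list, whose genes are long, had 15 of 62 genes with a member (24.2%) and 1.30 members per Mb, led by TNS3 (5.81-fold), ITGB4 (5.74-fold) and CTNND2 (5.50-fold). The chromatin and transcription cofactor list had 10 of 57 genes (17.5%, 1.59 per Mb), among them NCOA1 (5.50-fold), CDK8 (4.98-fold) and CHD2 (4.66-fold). None of 41 ribosome biogenesis genes held a member (0 per Mb), and 27 of them had a DMSO promoter peak. Gene-body IgG peaks numbered 0.87 per Mb over all protein-coding genes. They numbered 1.51 in the sphingolipid list, 1.48 in the ERK list, 1.05 in the ribosome list and 0.89 in the adhesion list. The chromatin list had 0.86, the PIKfyve list 0.84, the receptor list 0.66, the fatty acid list 0.45 and the MYC network 0. These lists hold between 0 and 15 genes with a member each, and no list was tested.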

How the data were processed

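c-MYC ChIP-seq peaks of MIA PaCa-2 cells were analysed from 4 deposited lists, 1 per library. Per the labels and the study's methods, the authors used Trimmomatic (0.39) for trimming and BWA (0.7.17) for alignment to GRCh38, removed duplicates with Picard, called peaks for each library with MACS2 (2.2.7.1) and removed excluded regions. Versions are from the submitters' processing notes. The lists deposited by the authors give a score, a fold enrichment (ratio), −log10 p-values and q-values, and the summit offset. No values of other samples were present (0 columns).

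Tags at the summit were recovered from the fold enrichment and p-value, with a pseudocount of 1, and the depth was estimated with an assumed genome size of 2700000000 bp, which the sources used here do not give. Overlap meant at least 1 shared base. Positions refer to GENCODE 44, with gene-body bases sampled every 10 bp. Shares carry Wilson and differences of shares Newcombe 95% intervals, which cover counting of peaks only. Differences of mean GC content carry normal intervals over peaks. With 1 library per group no treatment was tested. Scripts (Python 3.11.15, SciPy 1.17.1, pysam 0.24.0) were tested on simulated data. Named were the 10 strongest members, the 10 strongest with an E-box, the 8 genes with most members, list genes with a member, members at each threshold and members that overlap IgG peaks. Of the list genes, all are named for shorter lists and the strongest for the adhesion and chromatin lists. The members, gene lists and measures were chosen with earlier results of these data known, so no list is independent support. A planned measure of repeat-masked bases was not used here because the reference copy carries no masking. Alternatives covered the strength, overlap, TSS, IgG and motif settings.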

Additional observations from a re-analysis of the deposited data

How the results depend on the processing

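No paired analysis was possible because only 1 library was made per group, and for the same reason no replicate could be left out. Of 90 values for 13 results under alternatives, 64 were classed as the same, 20 as moved, 5 as reversed and 1 as weaker. A difference was the same when it kept its direction and its side of the threshold. A plain share was the same when it lay inside the interval of the reported share, and the number of members when it stayed close to the reported one. The moved values were all plain shares or numbers of members, and the reversed and weaker values were differences. The strength filters moved most. With fold enrichment above 5, 371 members were left, 88.1% of gene-body peaks were absent, 7.01% of members held an E-box and 5.12% lay in exons, and the E-box difference from intergenic peaks was −0.27 points. With a score above 60 these values were 74 members, 64.3%, 21.6% and 12.2%, with 0% overlapping an IgG peak and 41.9% in genes with a promoter peak. The E-box differences from kept gene-body peaks and absent promoter peaks became 2.11 and 1.51 points, with intervals that held 0. The share absent was 94.1% with drug peaks within 500 bp counted, 96.5% when at least 50% of the DMSO peak had to be covered, 96.9% with a TSS limit of 5 kb and 96.6% with TSS of all transcript types. The 5-kb limit gave an E-box share of 3.77% and an exon share of 4.94%. The E-box share was 2.92% within 50 bp, 8.26% within 250 bp and 6.77% with CACGCG included. Of alternatives chosen after seeing the data, members over 1 kb from every TSS and with fewer than 10 CpG had an E-box in 3.11%. The excess of promoter peaks in host genes was 3.21 points on the 5 chromosomes of highest density, with an interval that held 0. The trametinib difference at promoters was 0.18 points in genes over 50 kb and 0.58 on those chromosomes. The cause of these shifts was not tested. The members rest on 8 to 35 tags at the summit, and replicate error is unknown.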

Other observations

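Members were also counted in windows of 10 Mb. The window with the most was chromosome 5 from 140 to 150 Mb, with 29 members, 25 gene-body AMG510 peaks, 8 trametinib peaks and 6 IgG peaks. It was followed by chromosome 1 from 150 to 160 Mb, with 23 members, 17 AMG510 peaks, 9 trametinib peaks and 6 IgG peaks. Among several windows with 18 members, that on chromosome 14 from 60 to 70 Mb had 26 AMG510 peaks and 4 trametinib peaks. The whole lists held 1950 members, 3222 gene-body AMG510 peaks and 1349 gene-body trametinib peaks. The windows were ranked by their members, so these counts are a description with no test.

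The 94 members with an E-box had a median of 13.5 tags and a mean GC content of 58.2% ± 10.7 (SD over peaks), and the 1856 without one had 12 tags and 47.4% ± 10.6. Of the former, 14.9% carried 20 or more tags, against 0.70% of the latter.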
